A study of Homo sapiens with 7 samples.

Results

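The genes described here encode amino acid transporters of 6 solute carrier (SLC) families, SLC1, SLC6, SLC7, SLC36, SLC38 and SLC43. They are the rows of the gene table whose symbol names one of these families, leaving out SLC7A11 and SLC7A5. This gave 55 of the 57773 genes in the table. Earlier results of these data were known when the set was chosen. RNA-seq was done in MDA-MB-231, an established human triple-negative breast cancer line, with 2 libraries labelled KD and 3 labelled parent. The titles give only the group and a number, KD is not spelled out, and no label ties an allele, clone, agent or time to either group. The treatment protocol, shared by all samples, describes APE1-knockout cells transduced with doxycycline-inducible APE1 or its mutants, and does not say whether the KD libraries came from such cells. The series concerns APE1, a DNA repair endonuclease encoded by APEX1, and its binding to G-quadruplexes, stacked structures of guanine-rich DNA.

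Amino acid transporters of the plasma membrane decide which amino acids a cell can take up, exchange or release. The SLC1 carriers use the sodium gradient to concentrate glutamate or to exchange neutral amino acids, the SLC7 light chains exchange amino acids in a complex with a heavy chain (SLC3A2 or SLC3A1), and the SLC38 carriers bring in glutamine and other small neutral amino acids with sodium. Some members sit on the lysosome, where amino acids released from protein are sensed by the kinase complex mTORC1. The SLC6 family also carries neurotransmitters, taurine and creatine, SLC36 carriers use protons, and SLC43A1 and SLC43A2 let large neutral amino acids pass without sodium.

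Library totals lay between 14601078 and 18049386 counts. APEX1 was at 43.3 and 48.3 CPM in the KD libraries and at 124, 132 and 135 CPM in parent (2.84-fold lower, adjusted p = 5.9e-05), though the labels do not name the gene. CPM is a gene's count scaled to the size of its library, with TMM normalisation factors. VIM, CD44, AXL, ZEB1 and EGFR, which this line is known to express, were all detected, with VIM at 2147 to 2381 CPM (CD44, AXL and ZEB1 lower in KD), and ESR1 was at 0 in all 5 libraries, with PGR at most 0.137 CPM. Of the 9 markers of other cell types with a row, PTPRC, CD3E, VWF and FOXA1 were at 0 in all libraries, and COL3A1 reached at most 0.609 CPM. COL1A1 (18.1 to 25.9 CPM), GATA3 (33.5 to 38.1 CPM) and KRT19 (220 to 278 CPM) were detected. These detected markers did not pass the test between KD and parent. PDGFRB was higher in KD (mean 65.7 against 38.1 CPM), as was the epithelial cadherin CDH1 (mean 7.70 against 3.51 CPM). EPCAM, another epithelial marker, had a mean of 9.71 CPM in KD and 12.3 CPM in parent and did not pass the test. Their part in the results below was not tested. In bulk RNA, fewer cells that express a gene and less RNA per cell cannot be told apart.

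Transporter transcripts moved in both directions, with sharp contrasts between relatives. The glutamate carrier gene SLC1A1, at a mean of 5.32 CPM in parent, was not detected in KD, while its relative SLC1A3 rose 2.19-fold. The arginine carrier SLC7A2 fell 3.97-fold, the taurine carrier SLC6A6 fell 1.76-fold, and the leucine-type carrier SLC43A2 rose 1.92-fold. Of the 55 genes, 28 passed the filter on low counts, and of these 10 were higher and 10 lower in KD at an adjusted p of 0.05 (edgeR quasi-likelihood test, Benjamini-Hochberg over all 16198 genes tested). Over all tested genes, 21.5% passed, 9.15% higher and 12.4% lower. The median log2 fold change was -0.01 over the 28 genes and 0.00 over all genes tested. Of the 28, 5 reached 10 counts in libraries of only 1 group and so passed the filter through that group: SLC1A1, SLC7A4 and SLC38A4 through parent, and SLC6A16 and SLC7A8 through KD. Among the other 23, 16 passed the test, 9 higher and 7 lower. Among the 18 transporter genes with a mean of at least 10 CPM over all libraries, 15 passed, beside 25.2% of all genes at that level. The KD and parent values did not overlap for 25 of the 28 genes, and for 51.4% of all genes tested.

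**Figure D1:**
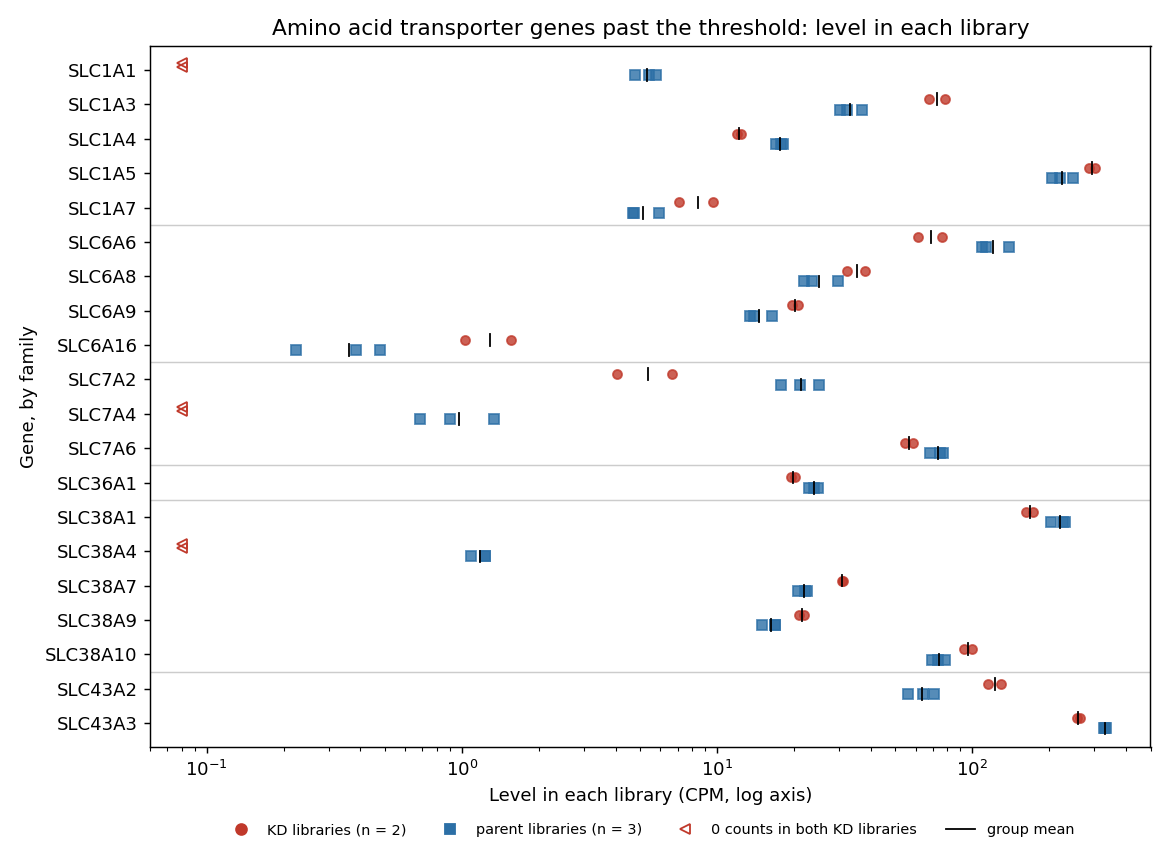
Level of each transporter gene past the threshold in every library, in CPM on a log axis, by family. Circles are the 2 KD libraries, squares the 3 parent libraries and black ticks the group means. Open triangles, placed at the left edge and not on the scale, mark genes with 0 counts in both KD libraries. No KD value lies among the parent values for any of the 20 genes, which were picked by the test on these same libraries. The groups did not overlap for 51.4% of all genes tested.

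The count of transporter genes past the threshold was 10 without KD replicate 1 (3 higher, 7 lower), 14 without KD replicate 2 (5 higher, 9 lower), 14 without parent replicate 2 (5 higher, 9 lower) and 15 without parent replicate 3 (6 higher, 9 lower). All genes past the threshold then made up 10.8%, 12.3%, 12.6% and 16.9% of those tested. Calls are given below with the libraries on which they rest.

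The SLC1 family divides into carriers of the acidic amino acids glutamate and aspartate (SLC1A1, SLC1A2, SLC1A3, SLC1A6, SLC1A7) and the neutral exchangers SLC1A4 and SLC1A5. All 5 tested members passed the test, 3 higher and 2 lower. Of these, SLC1A1 passed the filter through parent alone and so could be called only as lower. SLC1A1 (ENSG00000106688), the carrier EAAT3 or EAAC1, which also brings cysteine into cells, had 0 counts in both KD libraries. In parent it stood at 5.75, 4.78 and 5.42 CPM in replicates 1, 2 and 3. The difference was at least 53.8-fold, against a floor of 3 counts over the KD group, which is 0.0988 CPM (adjusted p = 0.000196). Floors cover counting error only, and the table holds estimated counts, in which a 0 can also be a failed estimate. SLC1A3 (ENSG00000079215), the carrier EAAT1 or GLAST, moved the other way. It was at 78.1 and 67.7 CPM in KD and at 37.1, 32.4 and 30.4 CPM in parent, so that every KD library lay above every parent library (log2 fold change 1.13 ± 0.104 SE, adjusted p = 0.000626). SLC1A7, the carrier EAAT5 known from retina, was at 9.68 and 7.11 CPM in KD and 5.94, 4.71 and 4.69 CPM in parent, 1.64-fold higher in KD (adjusted p = 0.0362). The adjusted p lay between 0.0293 and 0.210 over the 10 alternatives. It missed the threshold on leaving out KD replicate 1 (0.210), parent replicate 2 (0.115) or parent replicate 3 (0.0928), when low counts were kept (0.0659) and in DESeq2 (0.0543). SLC1A2, the astrocyte carrier EAAT2, had at most 6 counts in a library and SLC1A6 had none.

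The starts of SLC1A1 and SLC1A3 are shown because these glutamate carriers moved in opposite directions. SLC1A1 has 1 listed window, and of the 3 of SLC1A3 only those with a match to a motif are printed. The 250 bases before each start are from RefSeq (GRCh38.p14), given 5′ to 3′ on the gene's strand. Capitals mark matches to TGATGNAA, the core of C/EBP-ATF response elements bound by ATF4, to TGANTCA, or to a G-quadruplex motif (4 runs of at least 3 G with 1 to 7 bases between them), searched on both strands. TGANTCA is a loosened form of the AP-1 core (TGAGTCA or TGACTCA) that allows any base at N.

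SLC1A1, chr9:4490218-4490467, plus strand: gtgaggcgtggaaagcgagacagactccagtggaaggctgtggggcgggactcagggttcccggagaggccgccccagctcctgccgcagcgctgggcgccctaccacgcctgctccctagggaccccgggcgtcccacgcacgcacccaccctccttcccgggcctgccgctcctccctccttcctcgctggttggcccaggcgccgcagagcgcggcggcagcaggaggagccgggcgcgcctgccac

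SLC1A3, first start, chr5:36596338-36596587, plus strand: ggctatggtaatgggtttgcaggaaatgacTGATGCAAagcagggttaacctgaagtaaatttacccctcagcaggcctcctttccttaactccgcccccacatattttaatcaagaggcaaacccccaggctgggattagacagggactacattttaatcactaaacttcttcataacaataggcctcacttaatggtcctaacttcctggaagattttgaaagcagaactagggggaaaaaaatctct

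SLC1A3, a further start, chr5:36606704-36606953, plus strand: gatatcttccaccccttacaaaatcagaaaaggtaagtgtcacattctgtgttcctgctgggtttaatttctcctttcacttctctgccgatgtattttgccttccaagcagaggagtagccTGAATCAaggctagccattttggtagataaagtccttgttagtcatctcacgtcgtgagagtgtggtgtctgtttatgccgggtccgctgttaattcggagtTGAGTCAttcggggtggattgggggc

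The SLC1A1 window had a G and C content of 74.4% and held no match to the 3 motifs. The first SLC1A3 window, at 43.2%, held 1 match to TGATGNAA, beginning 220 bases before the start. The further one, at 46.4%, held 2 matches to TGANTCA, beginning 128 and 26 bases before it. The match at 128 reads TGAATCA, which is not the AP-1 core, and the match at 26 reads TGAGTCA. The SLC1A3 window not printed, at 47.2%, held no match. The median G and C content over 35114 windows of this length was 58%. Promoter windows were found for 42 of the 55 genes, with 62 windows in all, since some genes have several starts. Among them 2 (3.23%) held TGATGNAA, 9 (14.5%) held TGANTCA and 22 (35.5%) held a G-quadruplex motif, beside 3.14%, 6.57% and 23.5% of all windows. A match is a run of letters and not a measured site, and the windows of 1 gene can overlap. The deposited counts are on hg19, and which start was used in these cells was not analysed here.

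The neutral exchangers of SLC1 also moved apart. SLC1A4 (ENSG00000115902), the alanine, serine and cysteine carrier ASCT1, was at 12.0 and 12.4 CPM in KD and at 17.9, 18.2 and 17.1 CPM in parent. It fell 1.45-fold, with each KD library under each parent library (log2 fold change -0.54 ± 0.0869 SE, adjusted p = 0.00605). SLC1A5 (ENSG00000105281), the glutamine exchanger ASCT2, was at 287 and 304 CPM in KD and at 205, 221 and 248 CPM in parent. It rose 1.31-fold (log2 fold change 0.39 ± 0.0821 SE, adjusted p = 0.0162). The SLC1A5 call was lost without KD replicate 1 (adjusted p = 0.0634), KD replicate 2 (0.105) or parent replicate 2 (0.0648), within a range of 0.000282 to 0.105.

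The SLC7 family holds the cationic carriers and the light chains of heteromeric exchangers. Among the 6 members tested 3 were lower, and the other 3 did not pass. SLC7A2 (ENSG00000003989), the arginine and lysine carrier CAT-2, which macrophages induce when they are activated, was at 4.06 and 6.67 CPM in KD and at 17.8, 21.1 and 25.2 CPM in parent. The highest KD value was under the lowest parent value (log2 fold change -1.99 ± 0.237 SE, adjusted p = 0.00179). SLC7A1, the widely expressed arginine carrier CAT-1, was at 260.4 and 282 CPM in KD and at 299.7, 294 and 330.4 CPM in parent. Its log2 fold change of -0.18 ± 0.0681 SE did not pass (adjusted p = 0.106). SLC7A4, a protein related to the cationic carriers, had 0 counts in both KD libraries and 1.34, 0.683 and 0.894 CPM in parent, at least 9.85-fold lower (adjusted p = 0.00702). It passed the filter through parent alone and so could be called only as lower. SLC7A3 and SLC7A14 were at 0 in all 5 libraries.

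Among the light chains, SLC7A6 (ENSG00000103064), the y+LAT2 chain that exchanges arginine for neutral amino acids, fell 1.30-fold. It was at 54.4 and 58.8 CPM in KD and at 74.9, 68.4 and 76.7 CPM in parent (adjusted p = 0.0158). Leaving out KD replicate 1 ended the call (adjusted p = 0.0953), the alternatives giving 0.00108 to 0.0953. SLC7A6OS is the next protein-coding gene in the RefSeq order, and since no source states whether counting used strand, reads of any overlap cannot be told apart. SLC7A6OS did not pass (adjusted p = 0.368). SLC7A8, the LAT2 chain for large neutral amino acids, was at 1.22 and 0.897 CPM in KD and at 0.383, 0.546 and 0.447 CPM in parent. It did not pass (adjusted p = 0.0543, and 0.283 in DESeq2). These values rest on 18 and 14 counts in KD and 6 to 8 in parent. SLC7A7, the y+LAT1 chain, was at 1.97 ± 0.203 CPM in KD (SD, n = 2) and 1.66 ± 0.565 CPM in parent (SD, n = 3), with overlapping groups. SLC7A9, the partner of SLC3A1 in kidney and gut, had at most 6 counts in a library, and SLC7A10 and SLC7A13 had none.

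The heavy chain and the best-known light chains of this family are given for comparison. SLC3A2, the CD98 heavy chain that carries the light chains to the cell surface, was at 149.5 and 196 CPM in KD and at 136, 144 and 158 CPM in parent. These groups overlapped (adjusted p = 0.199). With replicate number as a block its adjusted p was 0.0378, within a range of 0.0378 to 0.873. SLC7A5, the leucine exchanger LAT1, was at 612 and 796 CPM in KD and 582, 645 and 724 CPM in parent (adjusted p = 0.577). SLC7A11, the cystine and glutamate exchanger, was 4.97-fold lower at 7.65 and 8.14 CPM in KD against 30.5, 39.6 and 47.6 CPM in parent (adjusted p = 0.000528). Thus 2 light chain genes fell in libraries in which the shared heavy chain did not pass the test. SLC3A1 had 0 counts in 4 of the 5 libraries.

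**Figure D2:**
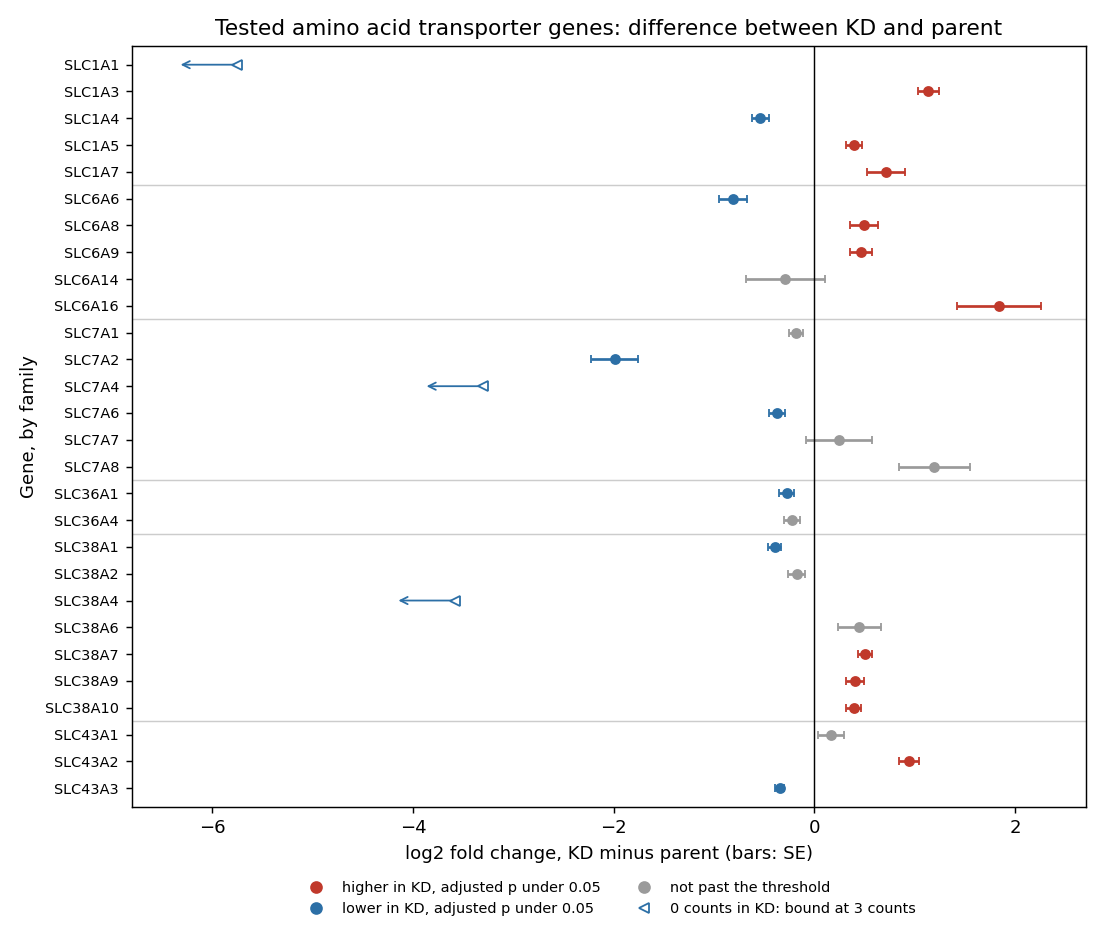
Difference between KD and parent for the 28 tested transporter genes, as log2 fold change (KD minus parent) with bars for the SE. Red and blue mark genes past the threshold, and grey marks those that were not. Open triangles with arrows give the bound for SLC1A1, SLC7A4 and SLC38A4, which had 0 counts in KD. Among genes past the threshold, SLC6A16, with a wide SE, SLC1A3 and SLC43A2 stand to the right at 1.84, 1.13 and 0.94, and SLC7A2 to the left at -1.99. SLC7A8, not past the threshold and also with a wide SE, lies at 1.19. SLC6A16 and SLC7A8 passed the filter through KD alone.

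In SLC38, the sodium-coupled neutral amino acid transporters, 3 of 7 tested members were higher and 2 lower. SLC38A1 (ENSG00000111371), or SNAT1, an importer of glutamine and alanine, was at 163 and 173 CPM in KD and at 204, 227 and 232 CPM in parent, 1.32-fold lower (adjusted p = 0.00738). Leaving out KD replicate 1 ended the call (adjusted p = 0.0725), the alternatives giving 8.4e-06 to 0.0725. SLC38A2, or SNAT2, the member best known for its induction by amino acid starvation, was at 138 and 115 CPM in KD and at 143, 148 and 139 CPM in parent. KD replicate 2 was the lowest of these and KD replicate 1 lay close to parent (adjusted p = 0.170). SLC38A4, or SNAT4, which is known from liver and placenta, had 0 counts in both KD libraries and 1.09, 1.23 and 1.23 CPM in parent, at least 12.0-fold lower (adjusted p = 0.00212). It passed the filter through parent alone and so could be called only as lower. In the RefSeq gene order (GRCh38.p14) SLC38A1, SLC38A2 and SLC38A4 follow each other with no other protein-coding gene between them.

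The 3 SLC38 members that rose include 2 that are known from lysosomes. SLC38A7 (ENSG00000103042), which exports glutamine and asparagine from lysosomes, was at 31.1 and 30.9 CPM in KD and at 20.8, 22.2 and 22.5 CPM in parent, 1.42-fold higher (adjusted p = 0.00266). SLC38A9 (ENSG00000177058), the lysosomal arginine sensor that signals to mTORC1, was at 21.0 and 22.0 CPM in KD and at 16.9, 16.8 and 14.98 CPM in parent, 1.33-fold higher (adjusted p = 0.0191). SLC38A10 was at 100.3 and 93.1 CPM in KD and at 78.5, 69.3 and 73.6 CPM in parent, 1.31-fold higher (adjusted p = 0.0106). In all 3 the KD values lay above the parent values. The SLC38A9 call was lost without KD replicate 1 (adjusted p = 0.0771), KD replicate 2 (0.104) or parent replicate 2 (0.0558), within a range of 0.0165 to 0.104. That of SLC38A10 was lost without KD replicate 1 (0.0727), within 0.000333 to 0.0727. SLC38A6 was at 6.32 ± 1.78 CPM in KD (SD, n = 2) and 4.64 ± 0.616 CPM in parent (SD, n = 3), and the groups overlapped. SLC38A3, the liver and brain glutamine carrier SNAT3, had 12 and 5 counts in the KD libraries and none in parent. That is at least 9.10-fold higher against 3 counts over the parent group, but it was removed by the filter and not tested. SLC38A5, SLC38A8 and SLC38A11 were at 0 throughout.

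The proton-coupled SLC36 family had 2 tested members. SLC36A1, or PAT1, which moves small neutral amino acids out of lysosomes, was at 19.4 and 20.1 CPM in KD and at 23.0, 23.9 and 24.98 CPM in parent, 1.21-fold lower (adjusted p = 0.0394). This call rested on every library but parent replicate 1. It was lost without KD replicate 1 (adjusted p = 0.193), KD replicate 2 (0.129), parent replicate 2 (0.116) or parent replicate 3 (0.110). It was also lost with library totals alone (0.0519), with no filter (0.0794), in DESeq2 (0.142) and with the replicate block (0.0663), within a range of 0.0377 to 0.193. SLC36A4 was at 47.6 and 46.9 CPM in KD and at 52.7, 53.4 and 59.6 CPM in parent and did not pass (adjusted p = 0.0850). SLC36A2 and SLC36A3 were at 0 in all libraries.

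Of the SLC43 genes, all 3 of them tested, 1 was higher, 1 was lower and 1 did not pass. SLC43A2 (ENSG00000167703), or LAT4, which lets leucine, phenylalanine and other large neutral amino acids cross without sodium, rose 1.92-fold. It was at 129.8 and 115 CPM in KD and at 70.7, 64.3 and 56.3 CPM in parent, so that the lowest KD library was well above the highest parent library (log2 fold change 0.94 ± 0.103 SE, adjusted p = 0.00125). SLC43A3 (ENSG00000134802), which despite its family is known as a carrier of purine nucleobases, fell 1.27-fold. It was at 258 and 264 CPM in KD and at 334, 329 and 333 CPM in parent, with little spread in either group (adjusted p = 0.0021). SLC43A1, or LAT3, the closest relative of SLC43A2 in substrate, was at 8.12 ± 0.663 CPM in KD (SD, n = 2) and 7.24 ± 0.528 CPM in parent (SD, n = 3) and did not pass (adjusted p = 0.410).

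SLC43A2 had the highest rise among the transporter genes whose call held under all 10 alternatives after SLC1A3, and the windows before its starts that held a match are shown for that reason, marked as above. A G-quadruplex motif on the opposite strand reads as runs of C.

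SLC43A2, chr17:1605035-1605284, minus strand: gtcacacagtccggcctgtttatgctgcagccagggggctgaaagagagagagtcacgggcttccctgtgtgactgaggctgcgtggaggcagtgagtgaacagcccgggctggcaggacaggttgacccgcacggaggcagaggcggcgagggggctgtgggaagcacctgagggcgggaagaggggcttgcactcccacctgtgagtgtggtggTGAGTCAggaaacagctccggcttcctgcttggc

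SLC43A2, chr17:1628835-1629084, minus strand: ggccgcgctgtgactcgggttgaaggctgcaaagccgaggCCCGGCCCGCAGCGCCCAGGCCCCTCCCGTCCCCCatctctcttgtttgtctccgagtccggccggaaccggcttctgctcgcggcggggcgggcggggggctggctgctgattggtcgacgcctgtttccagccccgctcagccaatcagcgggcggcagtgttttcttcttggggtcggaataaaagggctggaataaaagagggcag

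The first holds TGANTCA, beginning 34 bases before that start, and has a G and C content of 64.4%. The other, at 66.8%, holds overlapping matches to the G-quadruplex motif, in a stretch that begins 210 bases before its start. Another listed window of SLC43A2, not printed, held no match.

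In SLC6, the sodium- and chloride-coupled family, 5 of 19 members were tested. SLC6A6 (ENSG00000131389), the carrier of the sulfur amino acid taurine, was the only one that fell. It was at 76.3 and 61.3 CPM in KD and at 139.7, 109 and 113 CPM in parent, with every KD value under every parent value (log2 fold change -0.81 ± 0.136 SE, adjusted p = 0.00701). SLC6A8, the creatine carrier, was at 38.1 and 32.4 CPM in KD and at 29.7, 23.6 and 21.8 CPM in parent, 1.41-fold higher (adjusted p = 0.0460). SLC6A9, the glycine carrier GlyT1, was at 19.6 and 20.8 CPM in KD and at 16.4, 13.9 and 13.5 CPM in parent, 1.38-fold higher (adjusted p = 0.0240). SLC6A16, a member with no known substrate, was at 1.56 and 1.03 CPM in KD and at 0.383, 0.478 and 0.224 CPM in parent, 3.57-fold higher (adjusted p = 0.0223). The values of SLC6A16 rest on 23 and 16 counts in KD and 4 to 7 in parent. SLC6A16 passed the filter through KD alone and so could be called only as higher. The 3 rises did not hold in every fit. That of SLC6A8 was lost without KD replicate 1 (adjusted p = 0.241), KD replicate 2 (0.0787), either of parent replicates 2 (0.141) and 3 (0.0957), and when low counts were kept (0.0851), within a range of 0.00775 to 0.241. SLC6A9 lost its call without the same libraries (0.0839, 0.118, 0.0878 and 0.0587 in that order), within 0.0128 to 0.118. SLC6A16 lost it without KD replicate 1 (0.185), KD replicate 2 (0.0602) or parent replicate 3 (0.0508), in DESeq2 (0.0724) and with the replicate block (0.07), within 0.0213 to 0.185. SLC6A8 also has near-identical pseudogene copies, of which SLC6A10P had 4 to 8 counts in a library, so its count is uncertain.

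The other SLC6 genes did not pass or had too few counts to be tested. SLC6A14, a broad carrier of neutral and cationic amino acids, was at 0.698 ± 0.353 CPM in KD (SD, n = 2) and 0.851 ± 0.0389 CPM in parent (SD, n = 3), with overlapping groups (adjusted p = 0.655). SLC6A4, the serotonin carrier, and SLC6A7, the proline carrier, had at most 6 counts in a library. The 12 members at 0 in all 5 libraries included the GABA carriers SLC6A11 and SLC6A13, the betaine and GABA carrier SLC6A12, the noradrenaline and dopamine carriers SLC6A2 and SLC6A3, the glycine carrier SLC6A5, and SLC6A15, SLC6A17, SLC6A18, SLC6A19 and SLC6A20. Over the 6 families, 22 of the 55 genes were at 0 throughout and 5 more had at most 12 counts in a library. A count of 0 allows up to 0.0988 CPM in KD and 0.0623 CPM in parent.

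Grouped by substrate, the acidic carriers had 3 tested members, 2 higher and 1 lower, and the cationic carriers 3, of which 2 were lower. The lower acidic carrier, SLC1A1, and SLC7A4 among the cationic ones passed the filter through parent alone, so they could be called only as lower. The light chains had 3 tested members with 1 lower. The carriers of GABA, taurine and creatine had 2, with 1 in each direction. Over all tested genes, 9.15% were higher and 12.4% lower, and these classes are too small to set against those shares. Of the 20 calls, 10 held under all 10 alternatives. These were SLC1A3, SLC38A7 and SLC43A2, which were higher in KD, and SLC1A1, SLC1A4, SLC6A6, SLC7A2, SLC7A4, SLC38A4 and SLC43A3, which were lower. Of the lower ones, SLC1A1, SLC7A4 and SLC38A4 passed the filter through parent alone. The alternatives reuse the same libraries and are no independent support. None of the 20 changed direction under these 10 alternatives.

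**Figure D3:**
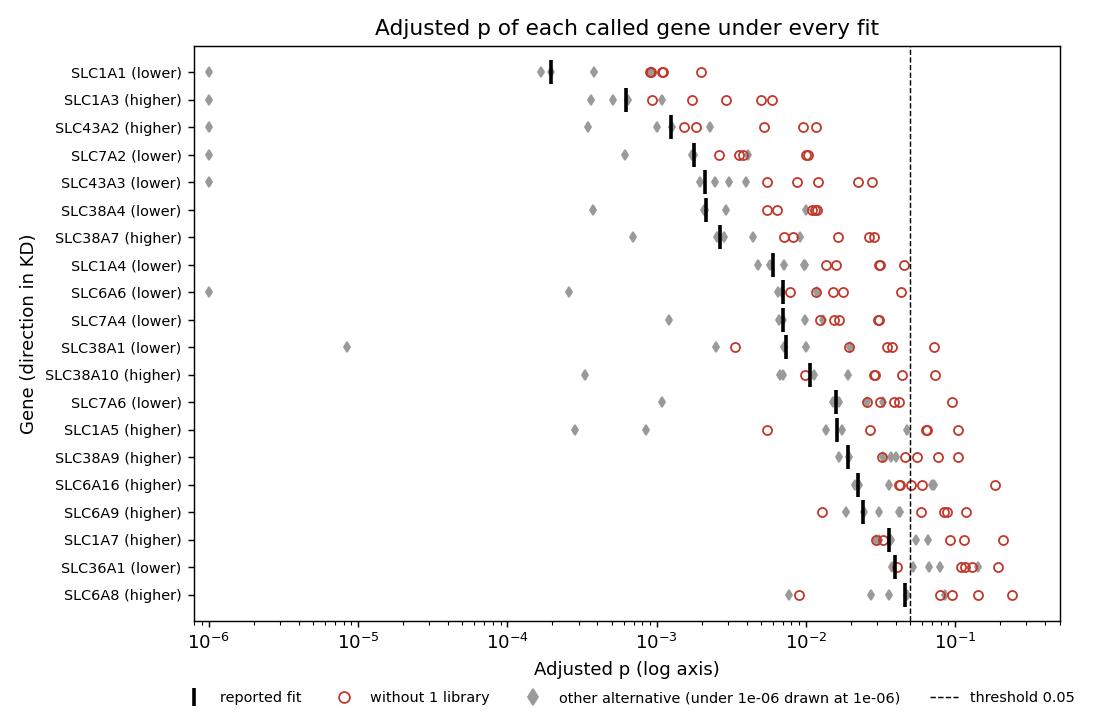
Adjusted p (log axis) of each of the 20 transporter genes past the threshold, in the reported fit (black ticks), without 1 library at a time (open circles) and under the other alternatives (grey diamonds). The smallest values are drawn at a common left limit. Values right of the dashed line at 0.05 lost the call. The upper 10 genes stay left of the line throughout, and SLC36A1 crosses it under 8 of 10 alternatives.

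The authors' deposited table of their own DESeq2 comparison gave an adjusted p to 32 of the 55 genes. In the authors' deposited table, 14 of these were past 0.05, 5 higher and 9 lower, beside 13.6% of all genes with an adjusted p there. All 14 were also past the threshold in the edgeR fit. The 6 genes called here but not in the authors' deposited table were SLC1A7, SLC6A8, SLC6A9, SLC6A16, SLC36A1 and SLC38A9. For SLC1A3 the authors' deposited table gave a log2 fold change of 1.12, and for SLC7A2 -2.00.

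Genes that use, sense or respond to the carried amino acids were counted in 6 lists. Of 144 tested genes, 16 were higher and 18 lower, 23.6% in all, beside 21.5% of all genes. Their count fell to 16 on leaving out KD replicate 1, to 18 for KD replicate 2 and to 19 for parent replicate 2. Of 20 tested enzymes of glutamine and glutamate, 3 rose and 5 fell (40%), with a median log2 fold change of -0.10. GFPT2, which uses glutamine to make hexosamines, fell 1.73-fold from 149.7 ± 7.70 (SD, n = 3) to 86.7 ± 0.264 CPM (SD, n = 2). GCLM, the modifier subunit of the first enzyme of glutathione synthesis, fell 1.44-fold (adjusted p = 0.00702), a call lost without KD replicate 1 (0.0508, the alternatives giving 7.1e-06 to 0.0508). ABAT, the GABA transaminase, rose 4.06-fold from 2.43 ± 0.633 (SD, n = 3) to 9.84 ± 0.410 CPM (SD, n = 2). The count for this list was 3 without KD replicate 1 and 4 without KD replicate 2.

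Of 24 tested enzymes of branched-chain amino acids, proline and arginine, 3 rose and 1 fell, 16.7% in all, beside 21.5% of all genes. The median log2 fold change was 0.07. ASS1, which makes arginine precursor from citrulline, was at 167 and 133 CPM in KD and at 51.7, 43.9 and 39.8 CPM in parent, 3.32-fold higher (adjusted p = 0.000293). BCKDK, the kinase that restrains breakdown of branched-chain amino acids, was 1.27-fold higher, and BCKDHB, a subunit of the dehydrogenase it acts on, was 1.48-fold lower. SAT1, which acetylates polyamines, was 1.72-fold higher. The BCKDHB call failed on leaving out KD replicate 2 (adjusted p = 0.0530, with 0.00858 to 0.0530 over the alternatives). The SAT1 call was lost without KD replicate 1 (0.124), KD replicate 2 (0.0514) or parent replicate 2 (0.0806), within 0.000584 to 0.124. The count of the list was 2 without KD replicate 2.

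Of 40 tested genes of amino acid sensing and mTORC1, 5 rose and 2 fell, 17.5% in all, beside 21.5% of all genes. The median log2 fold change was 0.07. TFEB, the transcription factor that drives lysosome genes, was at 46.9 and 44.9 CPM in KD and at 28.0, 24.3 and 25.7 CPM in parent, 1.77-fold higher (adjusted p = 0.000626). RRAGB, one of the Rag GTPases that bring mTORC1 to the lysosome, rose 1.34-fold, and GATSL2, whose product is related to the cytosolic arginine sensor, rose 1.53-fold. The leucyl-tRNA synthetase LARS was 1.18-fold lower. The other calls of this list, named here after their values were seen, were TFE3, LAMTOR1 and SESN3. TFE3 (log2 fold change 0.20, adjusted p = 0.0333) and LAMTOR1 (0.23, adjusted p = 0.0451) were higher and SESN3 (-2.78, adjusted p = 0.0400) lower. With no filter the 3 calls left in the list were TFEB (adjusted p = 0.00138), RRAGB (0.0370) and LARS (0.0370). TFE3, LAMTOR1 and SESN3 thus lost theirs in that fit. The calls on RRAGB were lost without KD replicate 1 (adjusted p = 0.132) or parent replicate 2 (0.0695), within a range of 0.0155 to 0.132. Those on LARS were lost without KD replicate 1 (0.143), KD replicate 2 (0.0697) or parent replicate 2 (0.0639), within 0.00106 to 0.143. GATSL2 lost its call without KD replicate 1 (0.109), KD replicate 2 (0.106) or parent replicate 2 (0.0766), with no filter (0.0548) and in DESeq2 (0.0752), within 0.0225 to 0.109. The list kept 3 calls without KD replicate 1, and 2 without KD replicate 2 or without parent replicate 2, and 3 with no filter. Of 12 tested heavy chains and other carriers 1 passed (8.33%), CTNS, the lysosomal cystine exporter. It was at 26.4 and 25.9 CPM in KD and at 19.1, 18.9 and 19.0 CPM in parent, 1.38-fold higher (adjusted p = 0.00397).

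In the amino acid response, scarcity of amino acids raises the transcription factor ATF4 and its targets. Of 31 tested genes listed for it, 2 were higher and 7 lower, 29% in all, beside 21.5% of all genes. The median log2 fold change of the list was -0.02. CEBPB, a partner of ATF4 on response elements, rose 1.84-fold from 167 ± 19.7 (SD, n = 3) to 307 ± 4.34 CPM (SD, n = 2). The asparaginyl-tRNA synthetase NARS fell 1.75-fold, the angiogenic factor VEGFA 1.97-fold, and EIF2AK4, the GCN2 kinase that detects uncharged tRNA, 1.26-fold. ATF4 itself (log2 fold change -0.07, adjusted p = 0.530) and its target ASNS (0.18, adjusted p = 0.309) did not pass. The EIF2AK4 call failed on leaving out KD replicate 1 (adjusted p = 0.0581, with 6.0e-05 to 0.0581 over the alternatives). Of 17 serine and glycine enzymes 2 rose and 3 fell (29.4%), with a median of 0.06. PSAT1, a step of serine synthesis, was 1.52-fold lower and the methionine synthase MTR 1.20-fold lower, while ALDH1L2, a mitochondrial folate enzyme, was 1.84-fold and the thymidylate synthase TYMS 1.23-fold higher. None of these 4 calls held without KD replicate 1, where adjusted p was 0.0845, 0.0781, 0.132 and 0.0574, and the list then held 0 calls. Leaving out parent replicate 2 also ended those on PSAT1 (0.0592), MTR (0.0606) and ALDH1L2 (0.0598). The MTR call ended on leaving out KD replicate 2 too (0.0589), and that of ALDH1L2 in DESeq2 (0.0538) and with the replicate block (0.0509). TYMS lost its call on leaving out KD replicate 2 (0.204) or either of parent replicates 1 (0.0575) and 3 (0.0645), and when low counts were kept (0.0868). Over the alternatives adjusted p was 0.000844 to 0.0845 for PSAT1, 0.00320 to 0.0781 for MTR, 0.0181 to 0.132 for ALDH1L2 and 0.00357 to 0.204 for TYMS. It held 1 call without parent replicate 2, and 3 without KD replicate 2 or parent replicate 3.

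**Figure D4:**
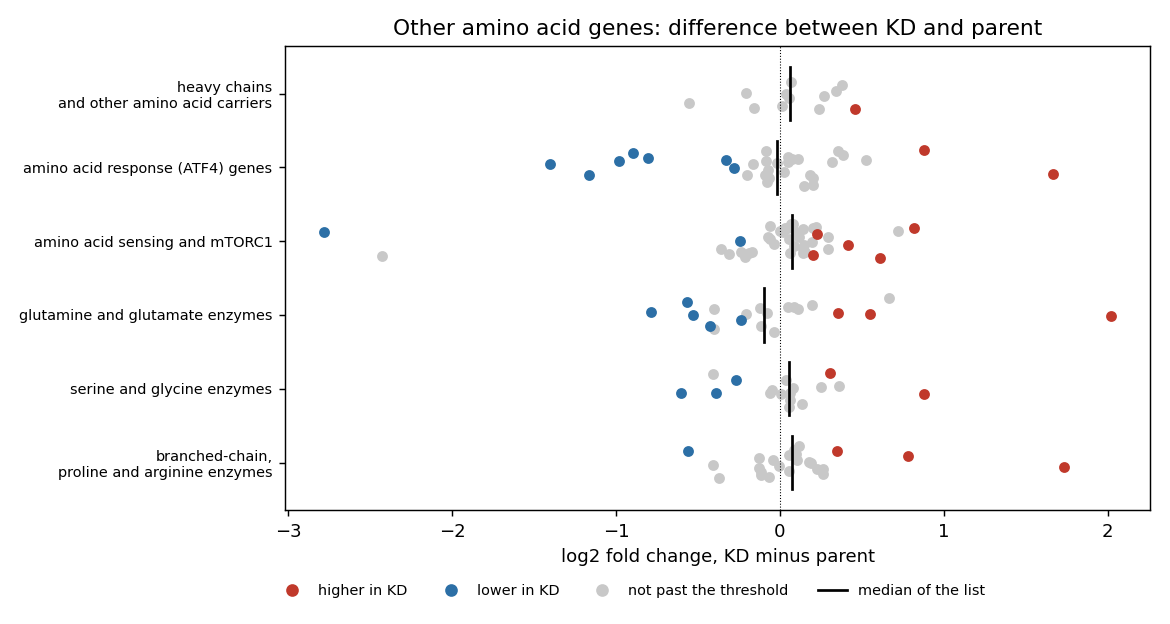
log2 fold change (KD minus parent) of every tested gene in the 6 lists, 1 point a gene, with the vertical position within a list random. Red and blue points passed the threshold, grey points did not, and black bars are list medians. A gene at 0 in 1 group is drawn at its 3-count bound. The medians lie between -0.10 and 0.07, and ABAT, ASS1 and NUPR1 stand furthest to the right at 2.02, 1.73 and 1.67.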

How the data were processed

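RNA-seq of 5 MDA-MB-231 libraries (2 KD, 3 parent) was analysed from the gene table of expected counts that the authors deposited, which holds whole numbers. STAR, DESeq2 and hg19 are named in the submitters' processing notes, without versions or roles. Not given in the sources used here are how reads were counted, on which annotation, and whether by strand. The authors' deposited comparison lists, per the file headers, a base mean (a signal), a log2 fold change and its SE, a Wald score, and raw and adjusted p-values. The transcript table and 2 chromatin immunoprecipitation samples were not used. Sample titles gave the groups. Since no label states that replicates were separate cultures, the p-values reflect the spread of these libraries only, which may be technical.

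After filterByExpr (minimum count 10, minimum total 15), 16198 genes remained and were scaled with TMM. The test was the quasi-likelihood F test of edgeR (4.0.16, under R 4.3.3) between KD and parent, without covariates (3 residual degrees of freedom), and Benjamini-Hochberg adjustment covered all genes at 0.05. The SE is the size of the log2 fold change divided by the root of F. The code was checked on simulated counts. The rule names all 55 genes, with each replicate's value for those past the threshold, and from each list the 4 called genes with the smallest adjusted p. A few of these are counted but not reported here by name. Members and lists were chosen with earlier results of these data known. Alternatives were DESeq2 size factors, library totals alone, the Wald test of DESeq2 1.42.0, no filter, leaving out each library, and the replicate number as a block.

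Of the 55 identifiers, 54 matched the name table. Promoter windows are from RefSeq (GRCh38.p14).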

Additional observations from a re-analysis of the deposited data

How the results depend on the processing

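The number of genes past the threshold was 3485 and ranged from 1823 to 3383 when 1 library was left out, at 1823 on leaving out KD replicate 1, 2076 for KD replicate 2 and 2029 for parent replicate 2. Over the same fits the number of transporter genes ranged from 10 to 20, those higher from 3 to 10, and those lower from 7 to 10. The other alternatives gave 17 to 20 transporter genes. Each transporter gene called when a library was left out was among the 20 reported. The 6 lists together ranged from 16 to 30 calls against 34. When 1 library was left out, sensing genes ranged from 2 to 5, glutamine enzymes from 3 to 8, serine and glycine enzymes from 0 to 4, branched-chain, proline and arginine enzymes from 2 to 4, and response genes from 6 to 8. With no filter on low counts the sensing and the serine lists held 3 calls each. With the replicate number as a block the list of other carriers held 3 calls against 1, all genes 3940 and the transporters 18, of which all 18 were among the 20. Titles give both groups numbers 1 and 2, but nothing ties same-numbered libraries together, and the numbers were not taken as pairs. The 2 KD libraries deviate from their group mean by equal and opposite amounts. The r of deviations of same-numbered libraries (0.0868 and -0.018) therefore cannot decide whether they are pairs. Leaving out 1 library changed the sign of 3 genes that passed in none of the fits run. Their log2 fold changes ranged from -0.91 to 0.15 for SLC6A14, from -0.088 to 0.29 for SLC7A5 and from -0.00062 to 0.43 for SLC7A7. With no filter, SLC38A3 (adjusted p = 0.0498) also passed. The cause of these changes was not tested. At 0 counts in a group, levels under 0.0988 CPM in KD or 0.0623 CPM in parent could not be detected.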
